A study of Homo sapiens with 12 samples.

Results

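The genes described are 9 cadherins and catenins of adherens junctions, taken by symbol from a table of 29744 gene rows: CDH1, CDH2, CDH3, CDH11, CDH13, CTNNA1, CTNNB1, CTNND1 and JUP. All 9 had a row, and all 9 were among the 14417 genes that passed the filter on low counts. The 12 RNA libraries came from 4 human lines of the MCF10A family, 3 per line, and were made with a workflow meant to yield DNA, RNA and peptides together. The submitters describe all 4 as triple-negative breast cancer lines of rising malignancy. NeoT is MCFNeoT (benign hyperplasia, per the submitters), T1 is MCFT1 (atypical hyperplasia), CA1 is MCFCA1 (invasive cancer) and A10 is MCF10A (non-tumorigenic). As background outside the labels, MCF10A is a spontaneously immortalised breast epithelial line, NeoT was made from it with a mutant HRAS, and T1 and CA1 descend from the HRAS-carrying cells through xenografts in mice. Each line stands for 1 lineage kept in culture, so a difference between lines cannot be told apart from a difference between their cultures, and whether a line is 1 clone is not stated in the labels.

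A classical cadherin is a calcium-dependent adhesion protein that binds the same cadherin on the neighbouring cell. Its cytoplasmic tail holds β-catenin or plakoglobin, which bind α-catenin and through it actin, and p120-catenin, which keeps the cadherin at the membrane. E-cadherin and P-cadherin mark luminal and basal cells of the mammary epithelium, and a shift towards N-cadherin is widely used as a sign of epithelial-mesenchymal transition. Of the 9 genes, CDH1, CDH2 and CDH3 encode type I classical cadherins and CDH11 a type II cadherin. CDH13 encodes T-cadherin, which is tethered by a lipid anchor and has no catenin-binding tail, so it is a classical cadherin only by the label of the group. CTNNB1, JUP, CTNNA1 and CTNND1 encode β-catenin, plakoglobin, αE-catenin and p120-catenin. CDH11, CDH3, CDH1 and CDH13 lie on the long arm of chromosome 16 (GRCh38.p14), CDH11 at 64943753 to 65123744, CDH3 at 68645310 to 68733771, CDH1 at 68737292 to 68835537 and CDH13 at 82626969 to 83800640. CDH2 lies on chromosome 18 (27932879 to 28177130), CTNNA1 on 5 (138753425 to 138935034), CTNNB1 on 3 (41199505 to 41240443), CTNND1 on 11 (57761802 to 57819540) and JUP on 17 (41754609 to 41786711).

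RefSeq promoter windows (GRCh38.p14, 250 bases before to 50 after an annotated start) were matched for 4 of the 9 genes, with 9 windows among them. JUP and CTNNB1 are shown because they encode interchangeable partners of the cadherin tail and differed in how far they fell in NeoT. Capitals mark the E-box CAGGTG on either strand, the core bound by the SNAI and ZEB repressors. It was in 1 of the 9 windows and in 20.6% of 35116 RefSeq windows of the same length. In the downstream JUP window it occurred on both strands, starting 54 and 43 bases before the annotated start, without overlap. A match of letters is not a binding site, and gene-level counts do not say which start was used. No window was available here for CDH1, CDH3, CDH11, CDH13 or CTNND1, so these genes could not be searched.
JUP upstream start, chr17:41786662-41786961, minus strand: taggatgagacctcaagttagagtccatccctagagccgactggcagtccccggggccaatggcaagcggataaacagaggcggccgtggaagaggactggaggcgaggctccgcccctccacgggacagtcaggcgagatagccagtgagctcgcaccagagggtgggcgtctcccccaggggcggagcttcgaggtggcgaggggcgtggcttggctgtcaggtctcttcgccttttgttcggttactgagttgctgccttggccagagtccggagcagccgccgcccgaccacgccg
JUP downstream start, chr17:41785927-41786226, minus strand: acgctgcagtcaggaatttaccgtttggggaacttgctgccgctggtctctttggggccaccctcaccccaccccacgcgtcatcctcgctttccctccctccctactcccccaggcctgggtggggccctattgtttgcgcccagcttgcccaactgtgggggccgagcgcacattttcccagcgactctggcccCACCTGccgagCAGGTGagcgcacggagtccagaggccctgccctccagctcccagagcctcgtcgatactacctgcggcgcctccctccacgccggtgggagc
CTNNB1, chr3:41199255-41199554, plus strand: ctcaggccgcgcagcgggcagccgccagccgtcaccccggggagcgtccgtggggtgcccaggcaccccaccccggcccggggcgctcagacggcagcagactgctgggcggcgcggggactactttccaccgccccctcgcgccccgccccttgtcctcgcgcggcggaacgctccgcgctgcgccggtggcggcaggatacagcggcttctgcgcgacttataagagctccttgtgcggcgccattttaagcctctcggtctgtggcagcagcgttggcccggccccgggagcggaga

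Libraries held 18032399 to 35730423 counts. NeoT replicate 3 was least like its own line (r = 0.9776 and 0.9784 with the other NeoT libraries), and T1 replicate 1 differed most from its line beyond counting noise. Without both, every call of the 9 genes in any comparison held, and CDH1 and CTNNB1 in CA1 against A10 were called as well (adjusted p = 0.0024 and 0.0311). Values below are CPM, counts scaled to library size after TMM normalisation, so levels are compared for a gene across lines and not between genes of different length. A gene was called where its Benjamini-Hochberg adjusted p from edgeR's quasi-likelihood test over all 14417 genes was under 0.05. Cell type markers differed between the lines. Summed over 7 epithelial markers the libraries had 786 to 906 CPM in NeoT, 5340 to 5608 in T1, 7530 to 8231 in CA1 and 4408 to 4782 in A10, and none of the 7 was at 0 in any line. CDH1 is itself among the 7. Against A10, 5 of the 7 were lower in NeoT (36.7% of all tested genes were), 1 was higher (33.7% of all) and 1 was not called. Besides CDH1 and KRT5, the lower ones were KRT14 (log2 fold change -7.42), EPCAM (-2.53) and KRT19 (-2.03), the last under 1 CPM in both lines. KRT5 and KRT14 were also lower than in A10 in T1 (log2 -0.77 and -4.15) and in CA1 (-3.63 and -7.08). They were the only 2 lower there (25.9% of all tested genes in T1 and 36.5% in CA1). In T1 5 were higher (26% of all), and in CA1 4 were higher (34.4% of all) and 1 was not called. KRT5, a basal keratin gene, had 40.2 ± 3.49 CPM in NeoT and 3347 ± 152 in A10, KRT8, a luminal keratin gene, was higher in NeoT (473 ± 45.2 CPM, against 147 ± 13.0 in A10, edgeR adjusted p = 6.67e-13), and KRT18 did not pass (329 ± 14.3 CPM in NeoT and 349.9 ± 16.9 in A10, edgeR adjusted p = 0.185). Summed over 7 stromal fibroblast markers they had 611 to 679 CPM in NeoT, 1.74 to 2.78 in T1, 3.63 to 4.74 in CA1 and 73.5 to 79.1 in A10. Nearly all of the sum in NeoT was DCN (632 ± 34.0 CPM in the 3 NeoT libraries), with COL1A1 at 8.14 and PDGFRA at 0.0969 CPM. Summed over 5 adipocyte markers they had 35.1 to 46.8 CPM in NeoT, 0.641 to 0.949 in T1, 4.44 to 6.39 in CA1 and 0.0361 to 0.409 in A10, with CIDEC, PLIN1 and FABP4 higher in NeoT than in A10 and ADIPOQ at 0 in every line. Summed over 5 endothelial markers they had 2.59 to 3.53 CPM in NeoT, 82.9 to 90.6 in T1, 23.7 to 25.04 in CA1 and 7.34 to 10.8 in A10. Nearly all of the sum in T1 was PECAM1 (85.6 ± 3.56 CPM, against 2.09 ± 0.294 in A10), with VWF and CDH5 (itself a type II cadherin gene) under 1 CPM in every line. KDR went the other way in T1, with 0.346 ± 0.16 CPM against 5.81 ± 1.36 in A10 (log2 -4.02, edgeR adjusted p = 5.75e-07). It was also called lower than in A10 in NeoT (0.738 ± 0.262 CPM) and in CA1 (0 counts). Of the leukocyte markers, CD14 had 53.5 ± 2.07 CPM in NeoT, 92.4 ± 5.16 in T1, 19.4 ± 1.65 in CA1 and 64.1 ± 2.14 in A10 and was called in all 6 comparisons, ITGAM had 0 counts in NeoT and a mean of at most 1.32 CPM elsewhere, and PTPRC and CD3E had 0 counts in every line. In bulk RNA, fewer cells of a type and less RNA per cell cannot be told apart, and the part of these markers in the results was not tested.

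CDH1, the E-cadherin gene, was nearly silent in NeoT and at its highest in T1. The NeoT libraries had 15, 6 and 20 counts, or 0.654, 0.259 and 1.16 CPM. It stood at 621, 667 and 647 CPM in T1, at 372, 348 and 364 CPM in CA1, and at 302.5, 332 and 304 CPM in A10. All 3 NeoT libraries lay below all others, all 3 T1 libraries lay above all others, and CA1 and A10 lay close together without overlap. In NeoT it was 477-fold lower than in A10 (log2 fold change -8.90, SE 0.17, adjusted p = 6.34e-18 by edgeR), and only 1.17% of tested genes had a larger change in either direction. In T1 it was 2.06-fold higher than in A10 (log2 1.04, SE 0.10, edgeR adjusted p = 4.85e-08) and 984-fold higher than in NeoT. CA1 was 1.78-fold below T1 (edgeR adjusted p = 6.63e-07). CA1 against A10 was 1.16-fold (edgeR adjusted p = 0.057), which missed the threshold with the spread of all 4 lines and passed it without NeoT replicate 1, 2 or 3 (adjusted p = 0.0497, 0.0124 and 0.00132).

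CDH3 encodes P-cadherin, and its gene ends 3521 bases before CDH1 begins. It had 11.9, 12.03 and 10.7 CPM in NeoT, 354, 369 and 354 CPM in T1, 307, 318 and 315 CPM in CA1, and 497, 557 and 527 CPM in A10. The 4 lines did not overlap, with A10 highest and NeoT lowest. It was 45.5-fold lower in NeoT than in A10 (log2 -5.51, SE 0.08, edgeR adjusted p = 4.91e-20). Unlike CDH1, it was also lower in T1 (1.47-fold, edgeR adjusted p = 3.11e-07) and in CA1 (1.68-fold, edgeR adjusted p = 2.45e-09) than in A10. The step between CA1 and T1 was 1.15-fold downward (edgeR adjusted p = 0.00852).

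CDH2, the N-cadherin gene, was higher in NeoT and lower in T1 and CA1 than in A10. The libraries had 36.9, 44.3 and 56.7 CPM in NeoT, 17.2, 17.4 and 18.6 in T1, 11.3, 12.2 and 10.2 in CA1, and 26.5, 25.7 and 27.1 in A10. The lines did not overlap, and NeoT spread most (coefficient of variation 21.8%, against 2.76% in A10). The rise in NeoT was 1.73-fold (log2 0.79, SE 0.12, edgeR adjusted p = 1.43e-05), and 45.7% of tested genes changed by more. CDH2 fell 1.49-fold in T1 (edgeR adjusted p = 0.00079) and 2.35-fold in CA1 (edgeR adjusted p = 1.35e-07) relative to A10. CA1 was 1.58-fold below T1 (edgeR adjusted p = 0.000358).

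CDH13 (T-cadherin) had the opposite order to CDH1 at its ends, highest in NeoT and lowest in T1. It had 477, 522 and 584 CPM in NeoT, 30.03, 27.2 and 31.9 in T1, 65.4, 61.9 and 57.9 in CA1, and 116, 125 and 114 in A10. No 2 lines overlapped. Relative to A10 it rose 4.46-fold in NeoT (log2 2.16, SE 0.08, edgeR adjusted p = 4.68e-14), fell 3.99-fold in T1 (edgeR adjusted p = 6.31e-13) and fell 1.92-fold in CA1 (edgeR adjusted p = 7.39e-09). CA1 stood 2.08-fold above T1 (edgeR adjusted p = 4.44e-09). In 10 of 12 libraries its estimated count was not whole, so some of its reads were shared out between transcripts of different rows.

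CDH11, a type II cadherin of mesenchymal and bone cells, was at trace level in every line. Its counts were 2, 0 and 0 in NeoT, 14, 12 and 24 in T1, 14, 21 and 16 in CA1, and 15, 24 and 18 in A10, or at most 0.981 CPM. The NeoT libraries lay below all others, and the other 3 lines overlapped. The ratio of A10 over NeoT was 19.6 (95% counting interval 5.19 to 166, counting error only; edgeR adjusted p = 0.000548), and both NeoT counts came from replicate 1. Without that library the fitted log2 fold change was -7.09 in place of -4.19. T1 against A10 (log2 -0.10, SE 0.60, edgeR adjusted p = 0.904) and CA1 against A10 (log2 0.26, SE 0.60, edgeR adjusted p = 0.718) were not distinguishable at this depth.

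**Figure D1:**
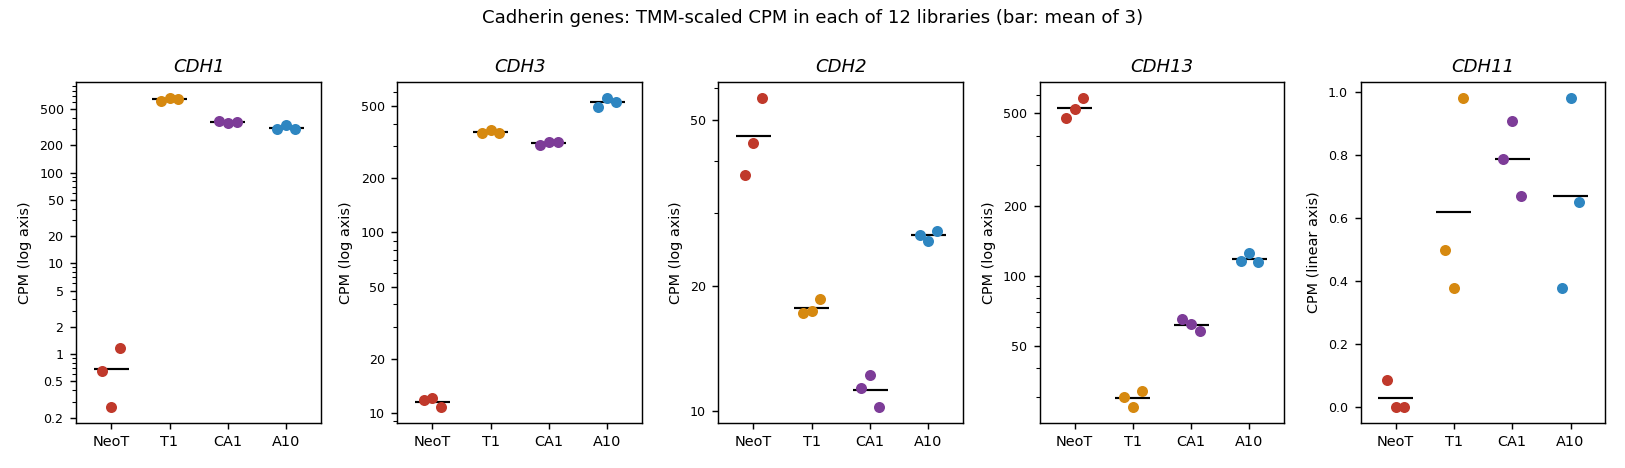
CPM of the 5 cadherin genes in each of the 12 libraries, with points for libraries and bars for the mean of 3, on log axes except for CDH11. CDH1 and CDH3 sit at 0.259 to 12.03 CPM in NeoT and at 302.5 or more in the other lines, while CDH2 and CDH13 are highest in NeoT.

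CTNNB1, the β-catenin gene, was low in NeoT and nearly level in the other lines. It had 169, 178 and 205 CPM in NeoT, 390.4, 381 and 400.3 in T1, 374, 381 and 385 in CA1, and 354, 346 and 346 in A10. NeoT lay below all others, T1 and CA1 overlapped, and both lay above A10. In NeoT it was 1.90-fold lower than in A10 (log2 -0.92, SE 0.07, edgeR adjusted p = 4.25e-10). T1 was 1.12-fold higher than A10 (edgeR adjusted p = 0.0438), a call that was lost when any of the 9 libraries of T1, CA1 or A10 was left out (adjusted p 0.0563 to 0.13). CA1 against A10 was 1.09-fold (edgeR adjusted p = 0.0957), and without NeoT replicate 3 the adjusted p was 0.0174. CA1 against T1 did not pass (log2 -0.04, SE 0.07, edgeR adjusted p = 0.632).

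JUP, the plakoglobin gene, which serves both adherens junctions and desmosomes, fell further in NeoT than its homologue CTNNB1. It had 84.2, 88.0 and 79.1 CPM in NeoT, 573, 615 and 542.5 in T1, 407, 444 and 406 in CA1, and 377, 454 and 423 in A10. T1 was highest, NeoT lowest, and CA1 and A10 overlapped. It was 4.98-fold lower in NeoT than in A10 (log2 -2.32, SE 0.08, edgeR adjusted p = 7.54e-15) and 1.38-fold higher in T1 (edgeR adjusted p = 2.88e-05). CA1 against A10 gave a log2 fold change of 0.01 (SE 0.07, edgeR adjusted p = 0.953), whose sign turned under 6 of the 22 alternatives tried. CA1 was 1.38-fold below T1 (edgeR adjusted p = 2.61e-05).

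CTNNA1, which encodes the link to actin, had the smallest fall of the 4 catenins in NeoT, and was higher in T1 than in A10 and higher again in CA1. The libraries had 413, 413 and 474 CPM in NeoT, 697, 713 and 735 in T1, 814, 828 and 817 in CA1, and 571, 602 and 558 in A10. No 2 lines overlapped. It was 1.33-fold lower in NeoT (log2 -0.41, SE 0.06, edgeR adjusted p = 8.42e-06), and 67.4% of tested genes changed by more. It rose 1.24-fold in T1 (edgeR adjusted p = 0.000322) and 1.42-fold in CA1 (edgeR adjusted p = 6.34e-07) relative to A10, and CA1 was 1.15-fold above T1 (edgeR adjusted p = 0.00913).

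CTNND1, the p120-catenin gene, had 108, 103 and 114 CPM in NeoT, 381, 385 and 388 in T1, 454, 458 and 440.2 in CA1, and 356, 384 and 349 in A10. CA1 was highest, T1 and A10 overlapped, and NeoT was lowest. It was 3.35-fold lower in NeoT than in A10 (log2 -1.74, SE 0.06, edgeR adjusted p = 1.33e-14) and 1.24-fold higher in CA1 (edgeR adjusted p = 0.00011). T1 against A10 did not pass (log2 0.08, SE 0.06, edgeR adjusted p = 0.245), and CA1 was 1.17-fold above T1 (edgeR adjusted p = 0.00242).

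**Figure D2:**
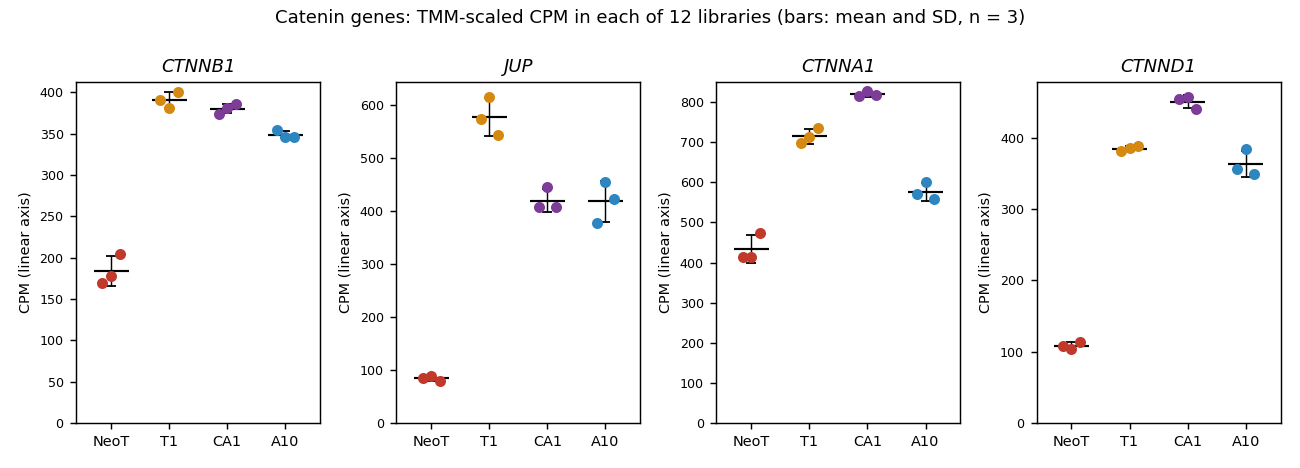
CPM of the 4 catenin genes in each of the 12 libraries on linear axes from 0, with bars for the mean and SD of 3 libraries. NeoT is lowest in all 4 panels, from 83.8 ± 4.48 CPM for JUP to 433 ± 35.0 for CTNNA1, and the highest line is T1 for CTNNB1 and JUP and CA1 for CTNNA1 and CTNND1.

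NeoT stood apart from all other lines in every one of the 9 genes. Against A10 all 9 were called, where 70.4% of all tested genes were. Of them 7 were lower (36.7% of all tested genes) and CDH2 and CDH13 were higher (33.7% of all tested genes), with a median log2 fold change of -1.74 beside -0.04 over all genes. The replicates of NeoT and A10 overlapped in none of the 9, against no overlap in 70.7% of all tested genes. T1 against NeoT also gave 9 calls (67.4% of all tested genes), 7 higher (35% of all) and 2 lower (32.4% of all), and no overlap in any of the 9 (68.6% of all). CA1 against NeoT gave 9 calls (66.4% of all tested genes), 7 higher (33.8% of all) and 2 lower (32.7% of all), and again no overlap in any of the 9 (67.9% of all). These comparisons share the NeoT libraries and are not independent of each other.

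T1, CA1 and A10 lay closer together. T1 against A10 gave 7 calls (51.9% of all tested genes called), with CDH1, JUP, CTNNA1 and CTNNB1 higher (26% of all tested genes were) and CDH2, CDH3 and CDH13 lower (25.9% of all). Replicates did not overlap in 7 of the 9, against 62% of all tested genes. CA1 against A10 gave 5 calls (70.9% of all tested genes called), with CTNNA1 and CTNND1 higher (34.4% of all tested genes were) and CDH2, CDH3 and CDH13 lower (36.5% of all). CDH1 and CTNNB1 were just over the threshold (edgeR adjusted p = 0.057 and 0.0957), so the count is not read as different from that share. Here too 7 of the 9 did not overlap, against 76.9% of all tested genes. CA1 against T1 gave 7 calls (62.2% of all tested genes), with CDH13, CTNNA1 and CTNND1 higher (30.4% of all) and CDH1, CDH2, CDH3 and JUP lower (31.9% of all), and no overlap in 7 (71% of all). Over all 4 lines together, all 9 genes differed, as did 89.8% of all tested genes. The comparisons with A10 share the A10 libraries, and the spread between replicates differed between lines, with a biological coefficient of variation of 16% in NeoT, 8.34% in T1, 6.38% in CA1 and 8.6% in A10. A shared estimate over all lines was used for every comparison.

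**Figure D3:**
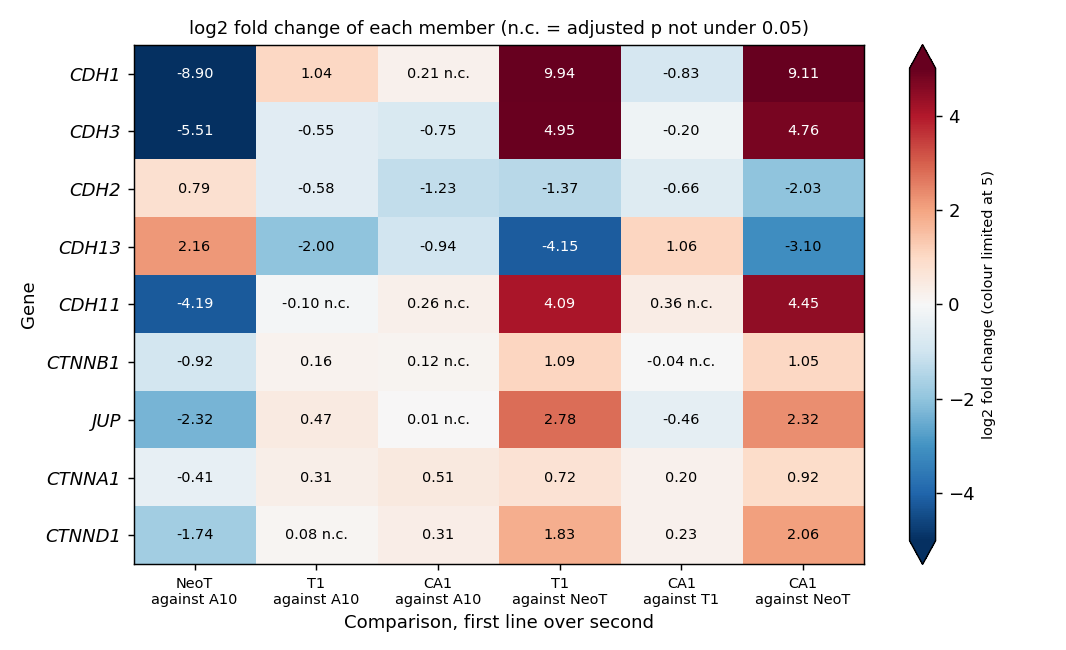
Fitted log2 fold change of the 9 genes (rows) in the 6 comparisons between lines (columns, first line over second), with n.c. where the adjusted p was not under 0.05. The 3 columns with NeoT hold the large changes, from -8.90 for CDH1 in NeoT against A10 to 9.94 in T1 against NeoT, and the others stay between -2.0 and 1.06.

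Ratios of counts within a library need no scaling between libraries, and only their change from line to line is read, since gene length sets their level. The log2 ratio of CDH2 to CDH1 was 6.22 ± 0.95 in NeoT, -5.19 ± 0.07 in T1, -5.01 ± 0.17 in CA1 and -3.56 ± 0.11 in A10 (SD, n = 3 libraries each). The ratio was highest in NeoT, and T1 and CA1 lay below A10. The log2 ratio of CDH3 to CDH1 was 4.25 ± 1.13 in NeoT, -0.84 ± 0.03 in T1, -0.21 ± 0.07 in CA1 and 0.75 ± 0.04 in A10. It too was highest in NeoT, and in T1 and CA1 it lay below A10 without overlap. The log2 ratio of JUP to CTNNB1 was -1.13 ± 0.21 in NeoT, 0.56 ± 0.13 in T1, 0.14 ± 0.07 in CA1 and 0.26 ± 0.15 in A10, and the NeoT libraries did not overlap the rest. CTNND1 to CTNNB1 had -0.76 ± 0.10 in NeoT, -0.02 ± 0.03 in T1, 0.25 ± 0.05 in CA1 and 0.06 ± 0.08 in A10. CTNNA1 to CTNNB1 was highest in NeoT (1.24 ± 0.04), followed by CA1 (1.11 ± 0.02), T1 (0.87 ± 0.03) and A10 (0.72 ± 0.06). The catenins thus fell unevenly in NeoT, JUP and CTNND1 by more than CTNNB1 and CTNNA1 by less. These ratios are descriptions and were not tested.

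**Figure D4:**
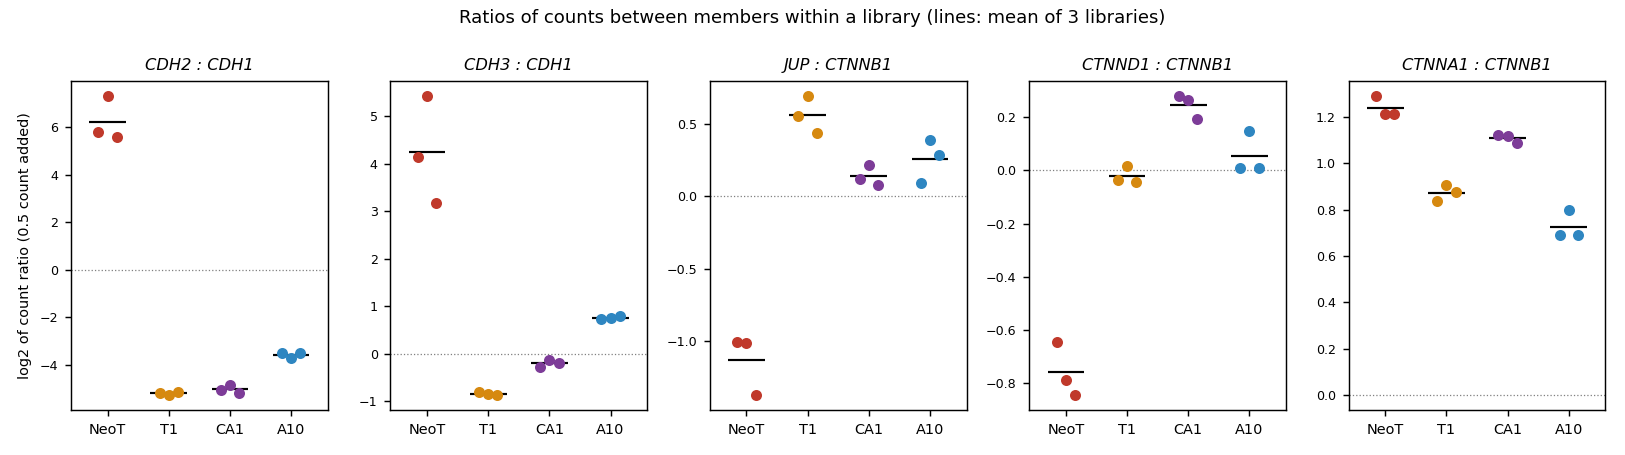
log2 ratio of counts between pairs of the 9 genes in each library, with 0.5 count added to each, points for libraries and bars for the mean of 3. The NeoT libraries stand away from the others in CDH2 to CDH1 (5.58 to 7.30, against -5.26 to -3.49 elsewhere), and lowest in JUP to CTNNB1 and CTNND1 to CTNNB1.

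The genes whose log2 CPM was most like that of each member over the 12 libraries were taken from 10356 genes of at least 10 CPM in their highest line. Pearson's r is a description here: the 12 libraries form 4 lines, and a gene low in NeoT alone gives a high r with any other such gene. CDH1 was most like MBP (r = 0.9979), the lipase-like gene PNLIPRP3 (0.9973) and the desmosomal plakophilin gene PKP2 (0.9969). CDH3 was most like KIAA0040 (0.9986), the basal transcription factor gene TP63 (0.9983) and the adhesion gene MPZL2 (0.9983). TP63 had 0 counts in NeoT, 41.8 CPM in T1, 27.1 in CA1 and 107 in A10, which is the order of CDH3. CDH2 was most like TTI1 (0.9910), the repressor gene SNAI2 (0.9897) and the growth hormone receptor gene GHR (0.9860). CDH13 was most like KYNU (0.9919), LEPRE1 (0.9917) and the laminin gene LAMC1 (0.9916). CTNNB1 was most like EPS8L1 (0.9935), the integrin gene ITGB6 (0.9934) and EIF5 (0.9934), and JUP like SAMD12 (0.9970), the lipid transporter gene ABCA12 (0.9960) and LSR (0.9958), a tricellular junction gene. CTNND1 was most like the laminin gene LAMA3 (0.9978), XDH (0.9971) and the kindlin gene FERMT1 (0.9970), and CTNNA1 like RUNX1 (0.9945), AMMECR1 (0.9936) and IFI35 (0.9925). CDH11, at trace counts, had a lower best r (OAZ1, 0.9636; PPP4C, 0.9603; MBD1, 0.9575). Among the members CDH1 had r = 0.99 with CTNNB1 and with JUP, 0.98 with CDH3 and CTNND1, and 0.86 with CTNNA1, and it had -0.79 with CDH2 and -0.92 with CDH13.

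Each count of a list below is read beside the share of all 14417 tested genes called in the same direction against A10: 33.7% higher and 36.7% lower in NeoT, 26% higher and 25.9% lower in T1, and 34.4% higher and 36.5% lower in CA1. The lists are short, and no test was made of them.

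Of 14 other type I and type II cadherin genes, 6 were tested. In NeoT 3 of the 6 were lower (50%) and 1 higher (16.7%) than in A10. In T1 1 was lower (16.7%) and 2 higher (33.3%), and in CA1 2 were lower (33.3%) and 1 higher (16.7%). With 6 genes, these counts are near the shares of all genes. No median is given for them, since several had 0 counts in a line. The lines differed in which of the 14 they expressed, with 12 at 0 counts in NeoT, 6 in T1, 4 in CA1 and 6 in A10. CDH4, the R-cadherin gene, had 3 counts in all over the CA1 libraries, against 17.2 ± 3.18 CPM in NeoT, 22.9 ± 2.13 in T1 and 25.7 ± 1.38 in A10, a ratio of A10 over CA1 of 553 (95% counting interval 189 to 2680; edgeR adjusted p = 9.36e-15). CDH19 went the other way, with 29.5 ± 1.68 CPM in CA1 and 0.334 ± 0.349 in T1, against 0 counts in NeoT and 1 count in A10 (ratio of CA1 over A10 2720, interval 488 to 108000; edgeR adjusted p = 1.11e-10). CDH24 had 15.4 ± 2.37 CPM in NeoT and 5.42 ± 0.596 in A10 (log2 1.5, edgeR adjusted p = 2.32e-07).

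Of 7 relatives and partners of the catenins 4 were tested, and in NeoT 3 were lower (75.0%) and none higher than in A10 (median -0.75 beside -0.04 over all genes). In T1 1 was higher (25.0%) and 2 lower (50%; median -0.20 beside -0.01), and in CA1 2 were higher (50%) and none lower (0.49 beside -0.02). CTNNBIP1, an inhibitor of β-catenin's binding to TCF factors, stood at 14.6 ± 0.794 CPM in NeoT, 42.7 ± 2.48 in T1, 97.2 ± 4.99 in CA1 and 54.2 ± 2.73 in A10. ARVCF, a p120-catenin relative, had 3.73 ± 0.402 CPM in NeoT, 15.6 ± 2.13 in T1, 28.5 ± 1.83 in CA1 and 6.66 ± 1.13 in A10. All 3 lines were called against A10 for each of these genes. PKP4, another relative, had 35.8 ± 3.20 CPM in NeoT and 56.6 ± 2.96 in A10 (log2 -0.66, edgeR adjusted p = 1.1e-06), while T1 (54.4 ± 1.69) and CA1 (57.3 ± 3.46) did not pass against A10.

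The nectins, a second adhesion system of the same junctions, were counted with afadin and the linkers to actin. All 12 were tested. In NeoT 9 were lower (75.0%) and 2 higher (16.7%) than in A10, with a median of -0.92 beside -0.04 over all genes. In T1 3 were lower (25.0%) and 6 higher (50%; median 0.15 beside -0.01), and in CA1 3 were lower (25.0%) and 9 higher (75.0%; median 0.54 beside -0.02). NECTIN1 had 10.1 ± 0.59 CPM in NeoT, 95.3 ± 6.18 in T1, 207 ± 2.85 in CA1 and 315 ± 25.0 in A10, lower in every derived line. LIMA1, whose product EPLIN ties α-catenin to actin, had 43.2 ± 2.57 CPM in NeoT, 175 ± 0.554 in T1, 490.4 ± 6.12 in CA1 and 174 ± 5.61 in A10. The actin crosslinker gene ACTN4 had 424 ± 19.1 CPM in NeoT, 1350 ± 52.8 in T1, 1837 ± 40.3 in CA1 and 646 ± 52.2 in A10. LIMA1 in T1 did not pass against A10 (edgeR adjusted p = 0.87), and the other changes of these genes against A10 did.

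Of 9 genes reported to repress CDH1, all tested, 7 were higher (77.8%) and 1 lower (11.1%) in NeoT than in A10, with a median of 1.38 beside -0.04 over all genes. In T1 1 was higher (11.1%) and 5 lower (55.6%; median -0.59 beside -0.01), and in CA1 2 were higher (22.2%) and 7 lower (77.8%; median -1.46 beside -0.02). TWIST1 stood at 213 ± 26.4 CPM in NeoT, 19.8 ± 0.501 in T1, 12.4 ± 2.15 in CA1 and 29.9 ± 1.51 in A10. SNAI2 stood at 135 ± 12.9, 26.8 ± 1.24, 12.01 ± 0.863 and 51.8 ± 2.55 CPM in NeoT, T1, CA1 and A10. TWIST2 had 42.3 ± 3.08 CPM in NeoT, 11.6 ± 1.57 in T1, 0.708 ± 0.0601 in CA1 and 28.6 ± 3.83 in A10. Of 3 genes reported to activate CDH1, 2 were lower and none higher in NeoT than in A10, 3 were higher in T1, and 2 were higher and 1 lower in CA1. The 2 called in NeoT became 1 without NeoT replicate 3, without A10 replicate 3 and with only NeoT and A10 fitted. GRHL2 had 59.0 ± 2.59 CPM in T1 and 39.3 ± 3.25 in CA1, against 0 counts in NeoT and in A10. It was at least 1810-fold higher in T1 than in A10 (edgeR adjusted p = 1.76e-14) and at least 1200-fold higher in CA1 (edgeR adjusted p = 1.73e-14). These bounds set the line at 0 to 3 counts over its libraries together and cover counting error only. FOXA1 had 2.33 ± 0.469 CPM in NeoT, 50.01 ± 2.81 in T1, 54.4 ± 1.72 in CA1 and 14.9 ± 1.17 in A10, and KLF4 had 32.9 ± 4.62, 84.5 ± 3.33, 33.8 ± 1.53 and 39.9 ± 1.99 CPM in NeoT, T1, CA1 and A10.

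Of 13 genes for the processing and uptake of cadherins, 12 were tested. In NeoT 4 were higher (33.3%) and 6 lower (50%) than in A10, in T1 6 higher (50%) and 3 lower (25.0%), and in CA1 3 higher (25.0%) and 7 lower (58.3%). The shares higher in NeoT and lower in T1 are near those of all genes (medians -0.23, 0.14 and -0.30, beside -0.04, -0.01 and -0.02 over all genes). The metalloprotease gene ADAM15 had 1011 ± 96.4 CPM in NeoT, 609 ± 12.8 in T1, 287 ± 19.4 in CA1 and 482 ± 25.4 in A10. The γ-secretase gene NCSTN had 220.0 ± 7.06 CPM in NeoT, 114 ± 3.29 in T1, 103 ± 0.851 in CA1 and 158 ± 3.48 in A10. PSENEN, another γ-secretase subunit gene, had 17.96 ± 1.90 CPM in NeoT, 33.6 ± 1.02 in T1, 8.74 ± 0.781 in CA1 and 22.8 ± 2.25 in A10.

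Of 9 genes that act in the degradation of β-catenin, 3 were higher and 3 lower in NeoT than in A10 (33.3% each), 2 higher (22.2%) and none lower in T1, and 3 higher and 3 lower in CA1 (33.3% each). Apart from the lack of lower genes in T1, these are near the shares of all genes, and the medians were 0.19 in NeoT, -0.03 in T1 and -0.03 in CA1, beside -0.04, -0.01 and -0.02 over all genes. The 2 called in T1 became 1 with upper-quartile scaling, with no filter, and without T1 replicate 2 or 3 or A10 replicate 2 or 3. GSK3A had 119.5 ± 5.06 CPM in T1 and 85.4 ± 7.25 in A10 (log2 0.49, edgeR adjusted p = 2e-05), FBXW11 128 ± 9.85 in CA1 and 79.0 ± 3.83 in A10 (log2 0.69, edgeR adjusted p = 6.33e-08), and APC 17.6 ± 3.48 in NeoT and 27.9 ± 4.13 in A10 (log2 -0.67, edgeR adjusted p = 0.000419). Other lines were called against A10 as well. GSK3A was lower in CA1 (log2 -0.36), FBXW11 was higher in NeoT (0.38) and T1 (0.19), and APC was lower in CA1 (-0.83). Of 12 genes used as targets of β-catenin with TCF factors, 8 were tested: 1 was higher and 3 lower (37.5%) in NeoT, and 2 were higher (25.0%) and 4 lower (50%) both in T1 and in CA1. The medians were -0.57 in NeoT, -0.36 in T1 and -0.74 in CA1, beside -0.04, -0.01 and -0.02 over all genes. The 4 lower in T1 and in CA1 were APCDD1, ZNRF3, LEF1 and AXIN2, the last under 1 CPM in every line. DKK1 and TCF7 were the 2 higher there. DKK1, a secreted WNT inhibitor, had 120.5 ± 2.85 CPM in NeoT, 150.0 ± 9.25 in T1, 276 ± 6.39 in CA1 and 62.2 ± 2.59 in A10, and TCF7, a TCF factor, 2.63 ± 1.57, 30.9 ± 1.24, 45.4 ± 1.95 and 2.42 ± 0.448 CPM in NeoT, T1, CA1 and A10. RNF43, whose product removes WNT receptors, had 0 counts in NeoT and 11.3 ± 0.83 CPM in T1, 11.8 ± 1.16 in CA1 and 13.5 ± 0.105 in A10. With NeoT set to 3 counts over its libraries, it was at least 284-fold lower in NeoT than in A10, a bound for counting error only (edgeR adjusted p = 1.65e-13).

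Within 500000 bases on either side of CDH3 and CDH1 on chromosome 16, 16 other protein-coding genes were tested, a window chosen after the values of CDH1 and CDH3 were seen. In NeoT 6 of them were higher (37.5%) and 7 lower (43.8%) than in A10, near the shares of all genes, and their median log2 fold change of -0.04 equals that of all genes. On the CDH3 side the nearest was ZFP90, with 32.2 ± 6.22 CPM in NeoT and 17.1 ± 1.22 in A10 (log2 0.91, edgeR adjusted p = 5.85e-06). On the CDH1 side the nearest was TANGO6, with 17.4 ± 1.94 CPM in NeoT and 24.0 ± 0.547 in A10 (log2 -0.47, edgeR adjusted p = 0.00069). The next gene, HAS3, a hyaluronan synthase, was low in NeoT as well, at 0.957 ± 0.36 CPM against 60.4 ± 2.52 in A10 (log2 -5.98, edgeR adjusted p = 1.87e-15). In T1 TANGO6 (log2 -0.43 against A10) and CDH3 (-0.55) were lower, and CDH1 was at its highest. HAS3 was lower by more, with 9.09 ± 1.53 CPM in T1 (log2 -2.73 against A10, edgeR adjusted p = 3.01e-12). In CA1 it had 70.3 ± 5.45 CPM and did not pass against A10 (log2 0.22, edgeR adjusted p = 0.096).

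**Figure D5:**
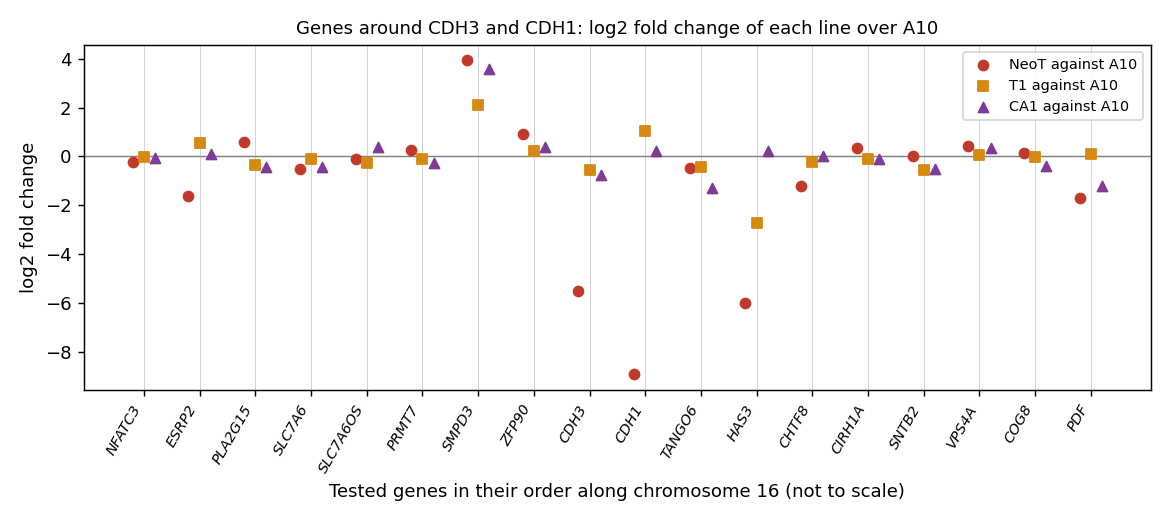
log2 fold change of NeoT, T1 and CA1 over A10 for CDH3, CDH1 and the 16 tested neighbours, placed in their order along chromosome 16. CDH3 (-5.51), CDH1 (-8.90) and HAS3 (-5.98) are far below 0 in NeoT, while TANGO6, which lies between CDH1 and HAS3, is at -0.47.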

How the data were processed

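The authors deposited estimated counts per gene, with no scaling between libraries, and the name of the table credits Salmon. GRCh38 and limma appear in the submitters' processing notes with no step attached, and versions and annotation are not given in the sources used here. Per the labels' protocols, DNase-treated RNA went into NEBNext Ultra libraries. Of the values 10.1% were not whole, and they were rounded. Genes were filtered with edgeR's filterByExpr, scaled with TMM and fitted to all 12 libraries with a mean per line (edgeR 4.0.16, R 4.3.3, robust quasi-likelihood, two-sided). P-values were adjusted over 14417 genes. The SE is the log2 fold change over the root of F. Figures and sequence work used Python 3.11.15 with pandas 2.3.3, numpy 2.4.6 and matplotlib 3.10.9. Likeness is Pearson's r between log2 CPM values (edgeR prior count 2).

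The genes and lists were chosen with earlier results of these data known. The 9 members were named throughout, with up to 3 genes of each list by the smallest p among the 4 lines, and the 3 genes most like each member. Further cell type markers, and the β-catenin targets called lower in T1 and CA1, were named besides. Nectins and afadin were found under older symbols (PVRL1 to PVRL4, MLLT4). Alternatives were RLE and upper-quartile scaling, other filters, DESeq2 1.42.0, limma-voom (limma 3.58.1), fits to the lines compared, a replicate block, fits without rRNA rows, and fits without libraries. The edgeR code was run on simulated data with changes planted in NeoT only and in far fewer genes than were called here. That run checks the code and cannot show how scaling behaves with so many changed genes. Replicates of a line differed by more than counting noise (chi-square per degree of freedom 5.49 to 99.9). The labels call them biological replicates and do not say whether they came from separate cultures. P-values thus cover only the spread between these libraries.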

Additional observations from a re-analysis of the deposited data

How the results depend on the processing

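Of the 9 genes, the number called in a comparison stayed within 1.5 times its main value under every alternative run: 8 or 9 in the comparisons with NeoT, 6 or 7 in T1 against A10, 5 to 7 in CA1 against A10 and 7 in CA1 against T1. Requiring at least 1 CPM in 3 libraries removed CDH11 from testing. The call of CTNNB1 in T1 against A10 was also lost with upper-quartile scaling (adjusted p = 0.0663) and with no filter (adjusted p = 0.0674). CDH1 in CA1 against A10 passed with DESeq2 (adjusted p = 0.00131), with limma-voom (adjusted p = 0.00585) and with only CA1 and A10 fitted (adjusted p = 0.00135), over a range of 0.00131 to 0.157. Signs turned for values that were not called. JUP in CA1 against A10 had log2 -0.028 with upper-quartile scaling, -0.014 with no filter, -0.002 without both T1 replicate 1 and NeoT replicate 3, and -0.065 to 0.067 with each library left out. CDH11 in T1 against A10 had 0.025 without both of those libraries and -0.585 to 0.269 with each left out, and CDH11 in CA1 against A10 had -0.047 to 0.626. The cause was not tested. Counts of all genes called stayed within 1.5 times of the main count, and the scalings moved the median of all genes by at most 0.070 in size. Of counts over the lists, 41 moved by more than 1.5 times and 1948 did not.

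Same-numbered replicates of different lines did not deviate together (correlations -0.069 to 0.088 over 18 pairs), so no pairing was used in the main fit. These values cannot show whether same-numbered libraries were handled together. With the replicate number as a block, 9 of the 9 genes were called in NeoT against A10, T1 against NeoT and CA1 against NeoT, 7 in T1 against A10, 5 in CA1 against A10 and 7 in CA1 against T1, and no call of the 9 genes changed. Depth limits CDH11 and, in NeoT, CDH1, each of which rests on few counts there.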
